A study of Mus musculus with 10 samples.

Results

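The genes described here were 35 smooth muscle contractile and cytoskeletal genes, chosen by name from the 55426 genes of the deposited expression table of mouse thoracic aorta. The list held smooth muscle actins, smooth muscle and non-muscle myosins, the proteins that lie along the thin filament, the LIM domain and actin-crosslinking proteins of dense bodies, adhesion proteins, and intermediate filament proteins. All 35 were among the 15668 genes with a mean of at least 0.5 TPM (the deposited unit, transcripts scaled for gene length and library total) over the 6 aortas, and their own means ran from 32.6 to 9540.4 TPM. RNA-Seq compared 3 aorta samples of control mice (Prdm16f/f, both alleles floxed and no Cre in the label) with 3 of Prdm16SMKO mice (Prdm16f/f with SMMHC-CreERT2), and asked what loss of the transcriptional regulator PRDM16 in vascular smooth muscle cells (VSMCs) does to the vessel. In the study's methods all mice are on a C57BL/6J background, and the KO was induced from 8 weeks of age with tamoxifen at 75 mg/kg/day for 5 days, followed by 2 weeks of washout. The CreERT2 is driven by the smooth muscle myosin heavy chain (*Myh11*) promoter from a transgene on the Y chromosome, so these mice are male. Whether the control mice also received tamoxifen, and the age at which these aortas were taken, are not given in the sources used here, and an effect of the Cre or of tamoxifen cannot be told apart from loss of *Prdm16*. The series also held ChIP-Seq of primary wild-type mouse vascular fibroblasts infected for 48 hours with lentivirus carrying PRDM16 or the vector and then kept for 1 week in puromycin at 2 μg/mL, of which the 1 anti-Flag library of each was used.

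VSMCs shorten when myosin, whose regulatory light chain has been phosphorylated by a calcium- and calmodulin-dependent kinase, pulls on actin filaments that are anchored in dense bodies inside the cell and in adhesion plaques at its edge. Calponin, caldesmon, and tropomyosin lie along the actin filament and tune this cycle, and LIM domain proteins sit where filaments are crosslinked. Many of these genes are under serum response factor (SRF), which binds the CArG box with its coactivator myocardin, and these genes are used as markers of the differentiated, contractile VSMC.

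The 35 genes showed a mixed picture. *Csrp1*, which encodes a LIM domain protein of the actin cytoskeleton, fell to 53.1% of its control mean and was the only 1 of 35 genes called by limma at an adjusted p of at most 0.05, where 1.07% of all 15668 tested genes were called, 0.683% lower and 0.389% higher. The smooth muscle α-actin gene *Acta2* stood at 64.9% and the non-muscle myosin gene *Myh10* at 59.8% of the control mean, both with every Prdm16SMKO aorta below every control aorta and neither past the threshold. *Pdlim3*, *Des*, *Csrp2*, and *Vim* were higher in every Prdm16SMKO aorta than in every control aorta, at 159%, 135%, 134%, and 122% of the control mean. *Myh11*, the myosin that defines the VSMC and whose promoter drives the Cre, overlapped between the groups. Within several paralog families the share of each member differed between the groups without overlap. Their exact permutation p was 0.1, the smallest that 3 aortas a group can give (adjusted p = 0.126). How often shares part in families of other genes was not computed. The study lists differentially expressed genes of these aortas that have PRDM16 at the promoter, by a test its methods do not name. That list holds *Myh10*, *Vcl*, and *Cav1* as lower and *Csrp2* and *Vim* as higher, although limma on TPM did not call them as deposited.

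In 16 of 35 genes (45.7%) the groups did not overlap, against 19.0% of all tested genes. Of these, 12 were lower in Prdm16SMKO, a direction held by 14.9% of all genes, and 4 were higher, a direction held by 4.08%. All tested genes include many of lower level and wider spread than the 35. Their median coefficient of variation was 15.8% in the control and 16.1% in the Prdm16SMKO aortas, and the share among genes of like level was not computed. Of the 35 genes, 29 had a log2 fold change below 0, where 67.9% of all tested genes did. The median log2 fold change, on the log2(TPM + 0.1) scale used throughout, was −0.22 for the 35 genes and −0.12 for all tested genes. TPM are shares of a fixed total, and over the 6 aortas mitochondrial transcripts took 14.7% to 26.5% and 1 noncoding transcript (CT010467.1) took 20.2% to 28.2% of all TPM. With each aorta rescaled by its median ratio to the others, the median of all genes was 0.0046, that of the 35 genes −0.10, 26 of 35 lay below 0 (49.3% of all genes), and 6 of 35 were called (2.64% of all genes), 3 lower (*Csrp1*, *Myh10*, and *Actn4*; 1.36% of all genes) and 3 higher (*Pdlim3*, *Csrp2*, and *Des*; 1.28% of all genes). With this rescaling 14 genes were lower without overlap (10.7% of all genes) and 6 higher (11.0%). *Myl9*, *Tpm1*, and *Tns1* then stood lower and *Cnn3* and *Actg2* higher without overlap, and the groups of *Synm* overlapped, so that for these 6 genes the statements on overlap further on hold for the TPM as deposited only. In the plot of fold changes, the genes are ordered by size with their intervals.

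**Figure D1:**
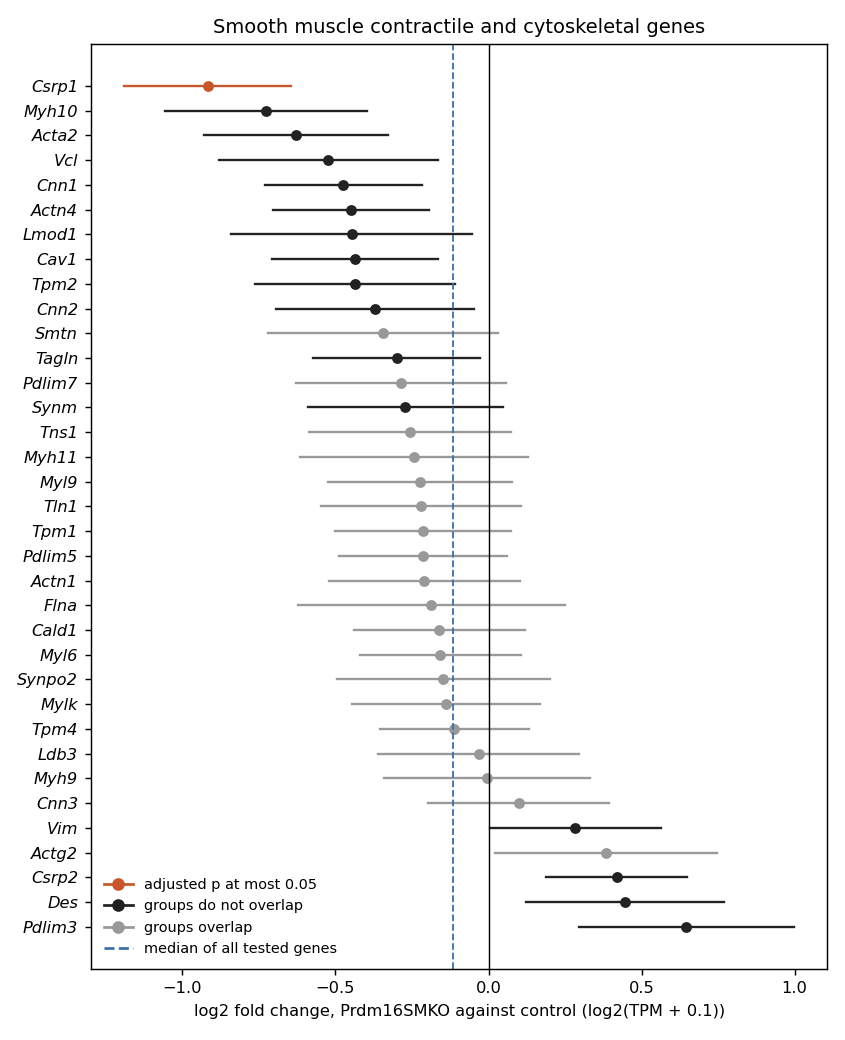
Log2 fold change (Prdm16SMKO against control, on log2(TPM + 0.1); points) with the 95% interval from limma (lines) for the 35 genes, 3 aortas a group, beside the median of all tested genes (dashed line, −0.12). Csrp1 lies lowest at −0.92 and Pdlim3 highest at 0.65, and 6 of the 35 points lie above 0.

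The 6 aortas did not have the same level of these genes within their groups. The median over the 35 genes of the log2 level relative to the mean of the 6 aortas was highest in control replicate 1 (0.32) and lowest in Prdm16SMKO replicate 3 (−0.31), and the same median over all tested genes was 0.21 and −0.17 in those 2 aortas. The 35 genes together held 5.23% to 6.09% of all TPM in the control aortas and 4.05% to 5.18% in the Prdm16SMKO aortas, which do not overlap. With the mitochondrial genes and CT010467.1 left out, they held 9.18% to 9.62% and 7.97% to 8.74%. Both separations rested on *Acta2*, at 11024 to 12433 TPM in the control aortas and 6455 to 8230.2 TPM in the Prdm16SMKO aortas. Without *Acta2* in the sum, the groups overlapped in both shares. Within a group the genes were reproducible, with a median coefficient of variation of 11.2% in the control aortas and 12.4% in the Prdm16SMKO aortas, near the medians of 10.7% and 11% over the 2921 tested genes expressed at or above the lowest of the 35. TPM do not show how many reads stand behind a value, so that depth is unknown.

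*Prdm16* itself stood at 56.1, 47.6, and 40.3 TPM in the control aortas and 23.3, 33.3, and 23.4 TPM in the Prdm16SMKO aortas, so the groups did not overlap and transcripts were still present in the Prdm16SMKO aortas (log2 fold change −0.85, SE 0.18, adjusted p = 0.0725). These were pieces of whole vessel wall, in which fewer VSMCs and less RNA per VSMC cannot be told apart. Among 10 fibroblast markers 1 was called by limma, *Col3a1* (a fibrillar collagen), at 865, 598, and 717 TPM in the control aortas and 445, 373, and 359.8 TPM in the Prdm16SMKO aortas (log2 fold change −0.88, SE 0.15, adjusted p = 0.0354). Of the 10, 6 had a log2 fold change below 0 and 4 above, with a median of −0.097, and only *Col3a1* had groups without overlap. The summed level of the 10 was 1807 to 2343 TPM in the control and 1385 to 1881 TPM in the Prdm16SMKO aortas. None of 9 endothelial markers (summed 137 to 184 against 97.9 to 213 TPM), 8 macrophage markers (67.9 to 95.2 against 54.8 to 92.7 TPM), 8 adipocyte markers (666 to 2132 against 601 to 1185 TPM), 7 tested brown adipocyte markers of 8 (105 to 622 against 152 to 532 TPM), 5 blood markers (944 to 4620.3 against 761 to 2625 TPM), or 5 Schwann cell markers (10.1 to 10.8 against 8.93 to 14.3 TPM) was called by limma, and 2 of these 42 tested markers had an unadjusted p under 0.05. The sums of 6 lymphocyte markers were at most 2.04 TPM. The part of these other cells in the levels of the 35 genes was not tested.

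The LIM domain proteins held both the lowest and the highest fold change of the 35 genes. *Csrp1*, a cysteine and glycine rich protein that binds α-actinin and zyxin, was at 1623, 1407, and 1470.5 TPM in the control aortas and 826, 869, and 695 TPM in the Prdm16SMKO aortas. The groups did not overlap. The means were 1500.2 ± 111 and 797 ± 90.6 TPM (SD, n = 3 each), and limma gave a log2 fold change of −0.92 (SE 0.12, adjusted p = 0.00957). This call was lost with no filter on low genes (adjusted p = 0.0550), without the mean-variance trend (0.0862), and without control replicate 3 (0.05004), and it held in the other 13 of 16 alternative settings with the log2 fold change between −0.98 and −0.78. Its close paralog *Csrp2*, a marker of smooth muscle in the vessel wall, was at 1786, 1732, and 1725 TPM in the control aortas and 2323, 2496, and 2198 TPM in the Prdm16SMKO aortas and thus lay in the opposite direction, with each Prdm16SMKO aorta above each control aorta. It did not pass the threshold as deposited (log2 fold change 0.42, SE 0.10, adjusted p = 0.108) but did with median-ratio rescaling (log2 fold change 0.54, adjusted p = 0.0262).

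Each gene of this pair serves as the other's reference, since a ratio of 2 genes of the same aorta does not depend on how that aorta was scaled. The ratio of *Csrp2* to *Csrp1*, per length, was 1.10 to 1.23 in the control aortas and 2.81 to 3.16 in the Prdm16SMKO aortas. *Csrp1* made up 46.2% ± 1.40 in the control aortas and 25.4% ± 1.17 in the Prdm16SMKO aortas of the sum of the pair (SD, n = 3; exact 2-sided permutation p = 0.1). A p of 0.1 is the smallest that 3 against 3 aortas can give, and 19 of the 24 family shares tested in this way reached it, with an adjusted p of 0.126 for each of these. The 24 are not independent, since shares within a family are tied to each other and both shares of a pair carry the same test. The share of *Csrp1* in each aorta ranged from 44.8% to 47.6% in controls and from 24.0% to 26.2% in Prdm16SMKO mice.

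The 4 PDZ and LIM domain proteins, which tether signalling proteins to α-actinin, also parted. *Pdlim3* (ALP) was at 433, 386, and 375 TPM in the control aortas and 636, 759, and 499 TPM in the Prdm16SMKO aortas, the largest positive difference of the 35 genes (log2 fold change 0.65, SE 0.15, adjusted p = 0.102). The groups did not overlap, and Prdm16SMKO replicate 3 lay closest to the controls. *Pdlim7* (enigma) was at 497, 415, and 372 TPM in the control aortas and 342, 411, and 300.0 TPM in the Prdm16SMKO aortas (log2 fold change −0.29, SE 0.15, adjusted p = 0.472), and *Pdlim5* (enigma homolog) at 120.0, 107, and 115 TPM in the control aortas and 92.7, 113, and 90.6 TPM in the Prdm16SMKO aortas (log2 fold change −0.22, SE 0.12, adjusted p = 0.498). In both of these Prdm16SMKO replicate 2 reached into the control range. *Ldb3* (ZASP), best known from the Z-disc of striated muscle, was low and level at 70.0, 56.9, and 54.4 TPM in the control aortas and 62.2, 64.2, and 50.6 TPM in the Prdm16SMKO aortas (log2 fold change −0.03, 95% interval −0.36 to 0.30). As shares of the summed TPM of these 4 genes, *Pdlim3* made up 39.9% ± 1.14 in the control aortas and 55.2% ± 1.83 in the Prdm16SMKO aortas and *Pdlim7* 42.6% ± 1.91 in the control aortas and 30.9% ± 0.900 in the Prdm16SMKO aortas (SD, n = 3; exact permutation p = 0.1 for each, 2-sided). *Pdlim7* was thus the most abundant of the 4 in 2 of the 3 control aortas, and *Pdlim3* in all 3 Prdm16SMKO aortas. With the paralogs outside the 35 genes added to the sum, the share of *Pdlim7* differed by −5.24 percentage points in place of −11.8, and that of *Pdlim3* by 15.1 in place of 15.3.

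The α-actinins crosslink actin filaments in dense bodies. *Actn4* was at 480.3, 438, and 421 TPM in the control aortas and 327, 359, and 296 TPM in the Prdm16SMKO aortas with no overlap (log2 fold change −0.45, SE 0.11, adjusted p = 0.119), and passed the threshold with median-ratio rescaling (adjusted p = 0.0376). *Actn1* was at 985, 815, and 809.7 TPM in the control aortas and 747, 868, and 648 TPM in the Prdm16SMKO aortas, where the groups overlapped (log2 fold change −0.21, SE 0.14, adjusted p = 0.563). *Actn1* made up 66.0% ± 1.11 in the control aortas and 69.6% ± 1.06 in the Prdm16SMKO aortas of the pair (SD, n = 3; exact 2-sided permutation p = 0.1). Filamin A (*Flna*), which links actin networks to the membrane, varied widely within groups, at 3600.0, 2682, and 2558 TPM in the control aortas and 2566, 3227, and 2021 TPM in the Prdm16SMKO aortas (log2 fold change −0.19, 95% interval −0.62 to 0.25).

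Among the actins, *Acta2* was the most abundant of the 35 genes in both groups, at 12433, 11249.9, and 11024 TPM in the control aortas and 7850.5, 8230.2, and 6455 TPM in the Prdm16SMKO aortas. No Prdm16SMKO aorta reached the lowest control aorta, and the means were 11569 ± 757 and 7512 ± 935 TPM (SD, n = 3 each). The log2 fold change was −0.63 with a 95% interval of −0.93 to −0.33 (SE 0.13, adjusted p = 0.0719), and limma called it only when mitochondrial transcripts were left out, alone or with CT010467.1. The γ-enteric smooth muscle actin *Actg2*, typical of gut smooth muscle, stood the other way at 217, 205, and 189 TPM in the control aortas and 276, 325, and 209 TPM in the Prdm16SMKO aortas, with Prdm16SMKO replicate 3 inside the control range (log2 fold change 0.38, SE 0.16, adjusted p = 0.365). The ratio of *Acta2* to *Actg2*, per length, was 55.0 to 58.4 in the control aortas and 25.4 to 30.9 in the Prdm16SMKO aortas. *Actg2* accordingly made up 1.73% ± 0.0526 in the control aortas and 3.44% ± 0.334 in the Prdm16SMKO aortas of the sum of the 2 (SD, n = 3; exact 2-sided permutation p = 0.1). No stretch of 50 bases of an annotated *Acta2* or *Actg2* transcript occurs in the other gene.

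The myosin heavy chains behaved unlike each other. *Myh11*, the smooth muscle heavy chain, was at 3379, 2679, and 2612 TPM in the control aortas and 2454, 2913, and 1990.3 TPM in the Prdm16SMKO aortas, with Prdm16SMKO replicate 2 above 2 of the 3 controls. The difference was within the spread of the aortas (log2 fold change −0.24, SE 0.16, adjusted p = 0.573; 95% interval −0.62 to 0.13). *Myh10*, the non-muscle heavy chain IIB, was at 329, 237, and 242 TPM in the control aortas and 169, 168, and 146 TPM in the Prdm16SMKO aortas, with no overlap and the second largest negative difference of the 35 genes (log2 fold change −0.73, SE 0.15, adjusted p = 0.0590). Its adjusted p fell past the threshold in 6 of 16 alternative settings, median-ratio rescaling among them (0.0207). *Myh9*, the non-muscle heavy chain IIA, was at 135, 109, and 106 TPM in the control aortas and 104, 139, and 107 TPM in the Prdm16SMKO aortas (log2 fold change close to 0, 95% interval −0.34 to 0.33). Of the summed TPM of the 3, *Myh10* made up 8.20% ± 0.362 in the control aortas and 5.98% ± 0.681 in the Prdm16SMKO aortas and *Myh11* 88.2% ± 0.314 in the control aortas and 89.7% ± 0.908 in the Prdm16SMKO aortas (SD, n = 3; exact 2-sided permutation p = 0.1 for each).

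As deposited, the light chains and their kinase overlapped between the groups. The regulatory light chain *Myl9* was at 4320.1, 3771, and 3733 TPM in the control aortas and 3419, 3836, and 2918 TPM in the Prdm16SMKO aortas (log2 fold change −0.22, SE 0.13, adjusted p = 0.523), and the essential light chain *Myl6* at 6956, 6497, and 6465 TPM in the control aortas and 5875, 6524, and 5499 TPM in the Prdm16SMKO aortas (log2 fold change −0.16, SE 0.12, adjusted p = 0.609). *Mylk*, the myosin light chain kinase, was at 579.9, 499.6, and 490.3 TPM in the control aortas and 471, 554, and 408 TPM in the Prdm16SMKO aortas (log2 fold change −0.14, 95% interval −0.44 to 0.17). In each of the 3 genes Prdm16SMKO replicate 2 lay above at least 2 controls. Of 17 further genes that set the phosphorylation of the light chain (myosin phosphatase subunits, calmodulins, and others, all tested) limma called 0 and 4 had an unadjusted p under 0.05, with an adjusted p of 0.131 for the one with the largest test statistic, *Camk2g* (a calmodulin-dependent kinase, at 104, 82.7, and 83.4 TPM in the control aortas and 61.1, 68.9, and 51.4 TPM in the Prdm16SMKO aortas). In 7 of the 17 the groups did not overlap, all lower in Prdm16SMKO, against 14.9% of all genes.

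Of the thin filament proteins, calponin 1 (*Cnn1*), an inhibitor of the actomyosin ATPase, was at 2054, 1894, and 1836 TPM in the control aortas and 1388, 1525, and 1259 TPM in the Prdm16SMKO aortas. The groups did not overlap, at means of 1928 ± 113 and 1390.5 ± 133 TPM (SD, n = 3 each), with a log2 fold change −0.47, SE 0.11, adjusted p = 0.1003 by limma. *Cnn1* was called only when mitochondrial transcripts were left out (limma adjusted p = 0.0477), alone or with CT010467.1. *Cnn2*, the more widely expressed calponin, was at 204, 152, and 155 TPM in the control aortas and 133, 143, and 117 TPM in the Prdm16SMKO aortas, also without overlap (log2 fold change −0.37, SE 0.14, adjusted p = 0.325). Acidic calponin *Cnn3* overlapped, at 393, 321, and 352 TPM in the control aortas and 385, 429, and 329.7 TPM in the Prdm16SMKO aortas (log2 fold change 0.10, SE 0.13, adjusted p = 0.800). Within the calponins *Cnn1* made up 78.6% ± 1.29 in the control aortas and 73.1% ± 0.591 in the Prdm16SMKO aortas, and *Cnn3* 14.5% ± 0.796 in the control aortas and 20% ± 0.595 in the Prdm16SMKO aortas (SD, n = 3; exact 2-sided permutation p = 0.1 for each), while the shares of *Cnn2* overlapped. Transgelin (*Tagln*, SM22α), a calponin-related actin-binding protein, was at 4643, 4162, and 4055 TPM in the control aortas and 3411, 3872, and 3179 TPM in the Prdm16SMKO aortas, lower in each Prdm16SMKO aorta by a small amount (log2 fold change −0.30, SE 0.12, adjusted p = 0.345).

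Tropomyosins wind along the actin filament and gate its contact with myosin. *Tpm2*, the β isoform, was at 3063, 2584, and 2547 TPM in the control aortas and 2016, 2369.7, and 1708 TPM in the Prdm16SMKO aortas with no overlap (log2 fold change −0.43, SE 0.14, adjusted p = 0.247). *Tpm1*, the α isoform, was at 1944, 1690.3, and 1639 TPM in the control aortas and 1548, 1682, and 1321 TPM in the Prdm16SMKO aortas (log2 fold change −0.22, SE 0.13, adjusted p = 0.517), and the low-abundance *Tpm4* at 145, 136, and 131 TPM in the control aortas and 118, 136, and 128 TPM in the Prdm16SMKO aortas (log2 fold change −0.11, SE 0.11, adjusted p = 0.702). Both of these overlapped between the groups. *Tpm2* made up 59.0% ± 0.431 in the control aortas and 55.1% ± 1.29 in the Prdm16SMKO aortas of the 3, and *Tpm1* 38.0% ± 0.305 in the control aortas and 41.4% ± 1.03 in the Prdm16SMKO aortas (SD, n = 3; exact 2-sided permutation p = 0.1 for each). The values of *Tpm4*, *Cnn3*, and *Myl6* are less certain than those of the others, because 11.7%, 10.3%, and 8.38% of the 50-base stretches of their transcripts recur in other annotated genes, pseudogenes foremost, against at most 0.689% for the other 32.

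The other thin filament proteins overlapped or nearly so. Leiomodin 1 (*Lmod1*), an actin nucleator, was at 493, 339, and 341 TPM in the control aortas and 274, 333, and 246 TPM in the Prdm16SMKO aortas, the groups touching without overlap (log2 fold change −0.45, SE 0.17, adjusted p = 0.326). Smoothelin (*Smtn*), a marker of contractile VSMCs, was at 1072, 839, and 782 TPM in the control aortas and 665, 859.8, and 601 TPM in the Prdm16SMKO aortas (log2 fold change −0.34, SE 0.17, adjusted p = 0.441). Caldesmon (*Cald1*), which restrains actin and myosin, was at 2726, 2145, and 2259 TPM in the control aortas and 2141, 2231, and 1979 TPM in the Prdm16SMKO aortas (log2 fold change −0.16, SE 0.12, adjusted p = 0.629). In *Smtn* and *Cald1* a Prdm16SMKO aorta lay among the controls. Synaptopodin 2 (*Synpo2*), an actin-bundling protein, did so too, at 430.4, 344, and 324 TPM in the control aortas and 344, 374, and 274 TPM in the Prdm16SMKO aortas (log2 fold change −0.15, SE 0.15, adjusted p = 0.723).

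**Figure D2:**
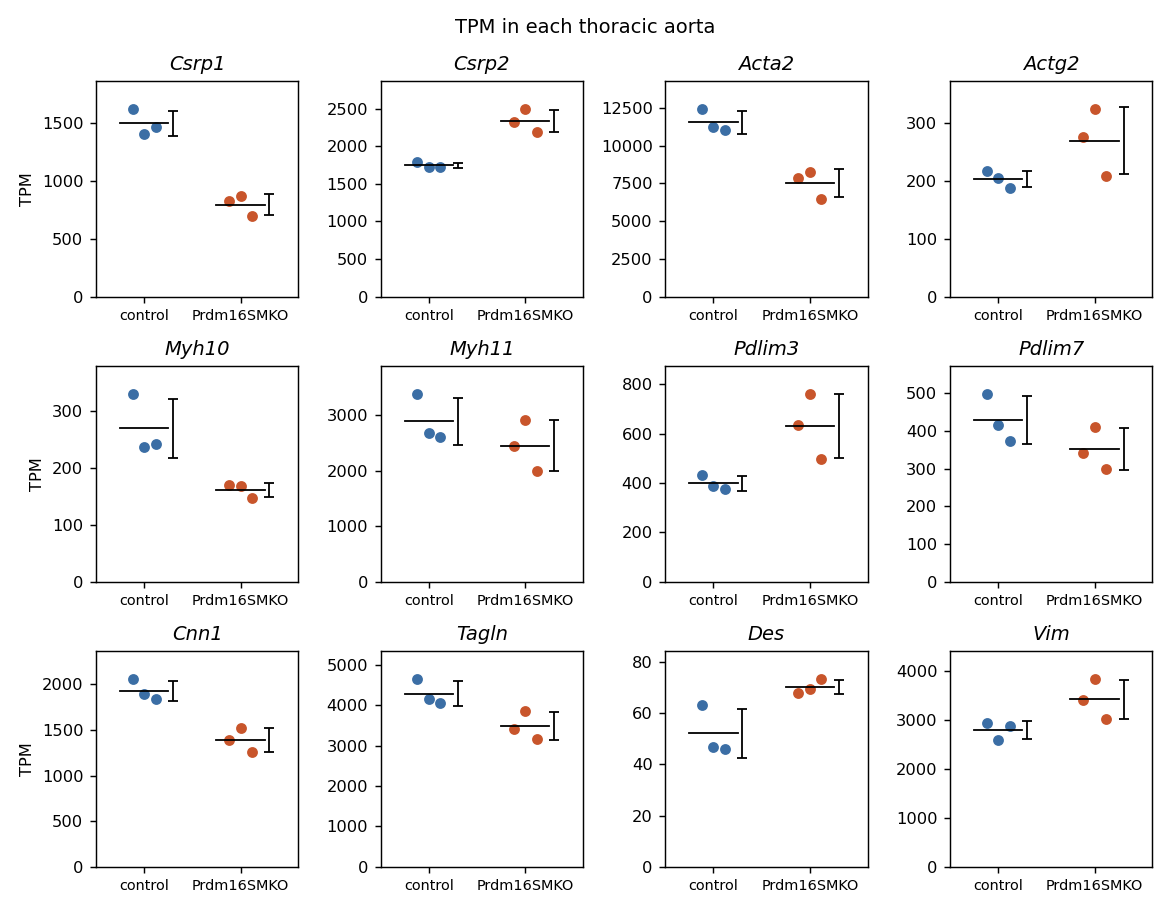
TPM (linear axis from 0) in each of the 3 control and 3 Prdm16SMKO aortas for 12 of the 35 genes, with the group mean (line) and SD (bar). In Csrp1, Acta2, Myh10, Cnn1, and Tagln all Prdm16SMKO aortas lie below the controls, in Csrp2, Pdlim3, Des, and Vim above them, and in Myh11, Actg2, and Pdlim7 the groups overlap.

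At the adhesion plaque, vinculin (*Vcl*), which ties actin to talin, was at 300.1, 249, and 248 TPM in the control aortas and 204, 210.0, and 146 TPM in the Prdm16SMKO aortas, lower in each Prdm16SMKO aorta (log2 fold change −0.52, SE 0.16, adjusted p = 0.205). Talin 1 (*Tln1*), which activates integrins, was at 240.0, 182, and 194 TPM in the control aortas and 180.2, 196, and 151 TPM in the Prdm16SMKO aortas (log2 fold change −0.22, SE 0.14, adjusted p = 0.559), and tensin 1 (*Tns1*), an integrin-binding actin linker, at 1455, 1154, and 1086 TPM in the control aortas and 1053, 1143, and 890.0 TPM in the Prdm16SMKO aortas (log2 fold change −0.26, SE 0.15, adjusted p = 0.501). Talin and tensin overlapped between the groups where vinculin did not. Caveolin 1 (*Cav1*), the coat protein of the caveolae that line the VSMC membrane, was at 777, 693, and 619 TPM in the control aortas and 561, 490.3, and 490.0 TPM in the Prdm16SMKO aortas, without overlap (log2 fold change −0.44, SE 0.12, adjusted p = 0.157).

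The intermediate filament genes were not alike. Desmin (*Des*), the muscle intermediate filament, was at 63.1, 46.9, and 46.1 TPM in the control aortas and 67.9, 69.5, and 73.1 TPM in the Prdm16SMKO aortas, higher in each Prdm16SMKO aorta (log2 fold change 0.45, SE 0.14, adjusted p = 0.233), and was called with median-ratio rescaling (adjusted p = 0.0416). Vimentin (*Vim*), the intermediate filament of mesenchymal cells, was at 2939, 2597, and 2878 TPM in the control aortas and 3421, 3834, and 3024 TPM in the Prdm16SMKO aortas, with each Prdm16SMKO aorta above the controls by a narrower margin (log2 fold change 0.28, SE 0.12, adjusted p = 0.386). Synemin (*Synm*), which joins desmin filaments to adhesion proteins, was lower, at 41.7, 34.0, and 31.4 TPM in the control aortas and 27.1, 30.7, and 30.4 TPM in the Prdm16SMKO aortas, its groups separated by less than 1 TPM (log2 fold change −0.27, SE 0.14, adjusted p = 0.465). Desmin transcripts were few beside those of vimentin, the ratio of *Vim* to *Des* being 46.6 to 62.5 in the control and 41.4 to 55.2 in the Prdm16SMKO aortas, which overlap.

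**Figure D3:**
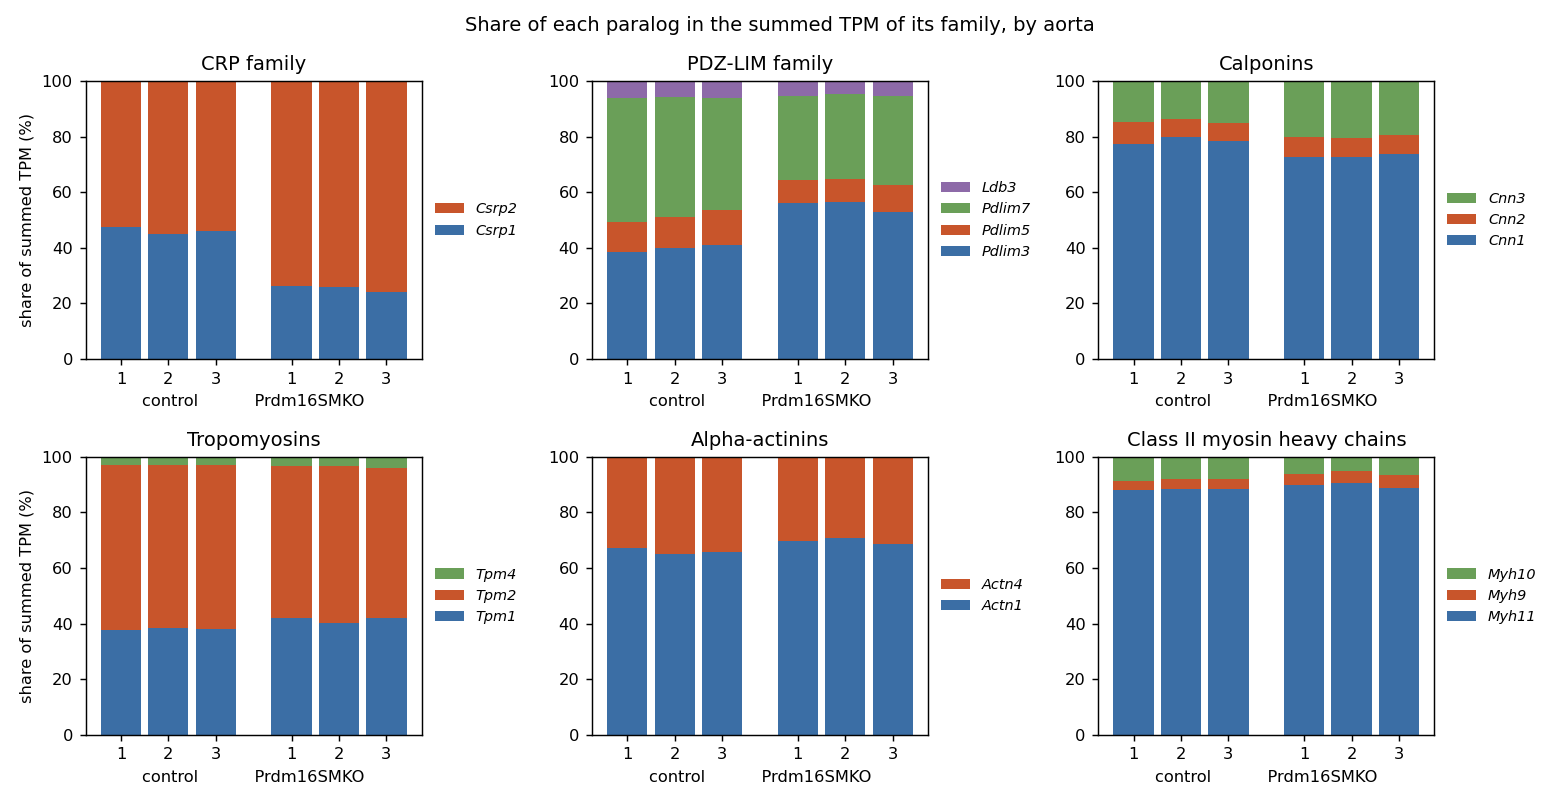
Share of each paralog in the summed TPM of its family (percent; stacked bars) in each of the 3 control and 3 Prdm16SMKO aortas, for 6 families. Csrp1 falls from a mean of 46.2% to 25.4% of its pair and Pdlim3 goes from 39.9% to 55.2% of its 4, while Myh11 has a mean of 88.2% and 89.7% of the myosin heavy chains.

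Outside the 35 genes, 46 other genes of actin-based contraction and adhesion were read from the same fit, of which 42 were tested. Among those with the largest test statistics were *Tagln2*, a transgelin paralog, at 527, 420.4, and 412 TPM in the control aortas and 284, 315, and 259.7 TPM in the Prdm16SMKO aortas (log2 fold change −0.66, SE 0.13, adjusted p = 0.0577), and *Ablim1*, an actin-binding LIM protein, at 48.5, 45.1, and 43.1 TPM in the control aortas and 72.1, 70.0, and 61.1 TPM in the Prdm16SMKO aortas (log2 fold change 0.57, SE 0.12, adjusted p = 0.0655). Both had groups that did not overlap, in opposite directions, and neither passed the threshold of this limma fit on TPM. The study's own list of differentially expressed genes holds both, in the same directions. Over the 42 genes, 31 lay below 0 (67.9% of all genes), 15 had groups without overlap that were lower (14.9% of all genes) and 3 that were higher (4.08%), and their median log2 fold change of −0.23 was close to that of the 35. Of 20 striated muscle genes 13 were tested and 1 was called, the cardiac troponin T gene *Tnnt2*, which rose, at 33.8, 21.7, and 16.8 TPM in the control aortas and 484, 503, and 503 TPM in the Prdm16SMKO aortas (log2 fold change 4.42, SE 0.22, adjusted p = 0.00015). None of the other 12 tested was called, with cardiac actin *Actc1* at 3.06, 6.17, and 2.82 TPM in the control aortas and 1.63, 1.82, and 0.740 TPM in the Prdm16SMKO aortas and the muscle creatine kinase gene *Ckm* at 5.98, 7.63, and 5.96 TPM in the control aortas and 6.71, 3.74, and 3.15 TPM in the Prdm16SMKO aortas.

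The promoters of these genes were read from a set of RefSeq promoters (GRCm38.p6) with an entry for 31 of the 35 genes. *Myh11*, *Tagln*, *Csrp2*, and *Actg2* have RefSeq transcripts but no entry in this set, and their promoters were not searched. In the 250 bases upstream of the start site, a CArG box stood in 5 of the 31 genes (16.1%), against 1.63% of the 26994 genes of the table. These 5, *Cnn2*, *Myl9*, *Myl6*, *Vcl*, and *Ldb3*, are shown as 50-base windows 5′ to 3′ on the strand of the gene, with the CArG box in capitals. Only the full pattern (CC, a run of A or T bases, then GG) was counted, and sites that differ from it in any base were not. Among the 31 genes searched, these 5 are thus those with a full match in the 250 bases, not those that SRF can bind.
Cnn2: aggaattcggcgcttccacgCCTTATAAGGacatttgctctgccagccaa
Myl9: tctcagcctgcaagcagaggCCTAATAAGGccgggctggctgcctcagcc
Myl6: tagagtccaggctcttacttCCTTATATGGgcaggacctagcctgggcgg
Vcl: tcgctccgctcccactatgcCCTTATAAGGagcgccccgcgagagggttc
Ldb3: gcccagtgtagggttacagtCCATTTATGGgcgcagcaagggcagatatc
The windows lie at chr10:79988524-79988573, plus strand (*Cnn2*), chr2:156775283-156775332, plus strand (*Myl9*), chr10:128493030-128493079, minus strand (*Myl6*), chr14:20929151-20929200, plus strand (*Vcl*), and chr14:34588687-34588736, minus strand (*Ldb3*) of GRCm38.p6. The first base of the box was at position −56, −161, −50, −227, and −35 from the start site, and *Ldb3* also has a start site that places the same box at −109. None of these 5 genes was called as deposited, at log2 fold changes of −0.37, −0.22, −0.16, −0.52, and −0.03.

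The MCAT element, the site of TEAD factors that also act on smooth muscle genes, was searched as CATTCC on both strands and stood in 11 of the 31 genes (35.5%), against 14.4% of all genes of the table. It was present in *Acta2*, *Smtn*, *Lmod1*, *Mylk*, *Cald1*, *Tpm1*, *Vcl*, *Flna*, *Actn4*, *Pdlim3*, and *Myh10*. All of these but *Pdlim3* had a log2 fold change below 0, as did 29 of the 35 genes. The promoters of the 4 genes with the largest differences that have an entry (*Csrp1*, *Myh10*, *Acta2*, and *Pdlim3*) are shown over 250 bases upstream of the start site, 5′ to 3′ on the strand of the gene, with CATTCC or its reverse complement in capitals. For *Csrp1* the downstream start site of 2 is shown, the nearest one to its peak described further on.
Csrp1: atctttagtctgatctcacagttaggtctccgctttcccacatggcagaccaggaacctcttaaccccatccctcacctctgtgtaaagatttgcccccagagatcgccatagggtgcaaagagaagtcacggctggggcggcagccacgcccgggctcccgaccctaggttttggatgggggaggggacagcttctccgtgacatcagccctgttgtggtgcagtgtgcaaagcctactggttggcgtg
Myh10: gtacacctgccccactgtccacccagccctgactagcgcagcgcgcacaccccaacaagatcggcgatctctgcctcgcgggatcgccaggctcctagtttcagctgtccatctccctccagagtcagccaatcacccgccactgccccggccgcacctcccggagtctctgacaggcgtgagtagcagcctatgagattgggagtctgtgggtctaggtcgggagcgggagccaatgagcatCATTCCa
Acta2: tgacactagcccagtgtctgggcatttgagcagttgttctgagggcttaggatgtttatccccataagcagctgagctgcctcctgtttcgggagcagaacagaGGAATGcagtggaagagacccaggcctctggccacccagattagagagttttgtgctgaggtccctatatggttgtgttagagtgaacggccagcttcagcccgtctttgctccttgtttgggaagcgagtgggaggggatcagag
Pdlim3: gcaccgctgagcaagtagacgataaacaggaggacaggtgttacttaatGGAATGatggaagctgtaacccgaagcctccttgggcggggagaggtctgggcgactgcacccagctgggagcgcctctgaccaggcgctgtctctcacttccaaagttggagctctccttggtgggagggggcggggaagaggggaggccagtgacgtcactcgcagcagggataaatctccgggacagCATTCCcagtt
These lie at chr1:135728917-135729166, plus strand (*Csrp1*), chr11:68691665-68691914, plus strand (*Myh10*), chr19:34255374-34255623, minus strand (*Acta2*), and chr8:45885237-45885486, plus strand (*Pdlim3*). The element was absent from the *Csrp1* window, began at −7 in *Myh10* and at −146 in *Acta2*, and occurred at −201 and −11 in *Pdlim3*. None of the 4 windows held a CArG box with every base matching. The *Acta2* window holds near matches to the CArG box, which were not counted. A match is a description of the letters in these windows, and an absent match says nothing of what binds there.

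ChIP-Seq with an anti-Flag antibody asked where Flag-tagged PRDM16 sits on chromatin, in fibroblasts and not in VSMCs. The PRDM16 list held 11271 peaks and the vector list 67, each from 1 library, so the peak values have no replicate and were not tested. At the 35 genes there were 61 PRDM16 peaks, with the centre within 2 kb of a transcription start site (TSS) or in the gene body, and 0 vector peaks. They fell on 23 of the 35 genes (65.7%), where 46.6% of the 13142 tested genes with a curated RefSeq transcript had such a peak. A longer gene body can hold more peaks under this rule, and the 2 shares were not matched for gene length. Within 2 kb of a TSS alone there were 29 peaks at 18 genes (51.4%, against 43.3%). Genes with no peak were *Myh11*, *Acta2*, *Tagln*, *Cnn1*, *Lmod1*, *Myl9*, *Mylk*, *Des*, *Actg2*, *Synpo2*, *Flna*, and *Pdlim3*.

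The strongest of the 61 peaks lay at the promoter of *Csrp2*. It spanned chr10:110919764-110920767 of GRCm38, had a fold enrichment of 11.6 by the authors' peak caller, above that of 98.5% of all peaks in the list, and had its summit 202 bases upstream of the TSS, outside annotated exons. The *Cav1* promoter peak followed at a fold enrichment of 8.99, then a peak in an intron of *Ldb3* at 7.56 and one at the promoter and an exon of *Synm* at 7.38, where the median of the list was 5.27. *Csrp1*, whose transcripts fell, had 1 peak, in an intron 10.9 kb downstream of its nearest TSS (chr1:135739880-135740272). It was among the weakest of the list, with a fold enrichment of 3.41, above that of 4.77% of peaks. Its −log10 q of 1.88 fell short of the 2 that matches the q of 0.01 named in the study's methods. The peak was thus also lost at a q of at most 0.001. The 2 paralogs with opposite fold changes in the aorta thus had the strongest and one of the weakest peaks of the group, as a description of 2 genes in another cell type.

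The 151 bases around 5 summits are shown 5′ to 3′ on the strand of the gene, with CArG and MCAT matches in capitals: the *Csrp2* and *Csrp1* peaks as a strong and a weak one of 2 paralogs, the stronger peak of *Myh10*, and the only 2 windows of the 61 that hold a CArG box, within 2 kb of the TSS of *Vcl* and in an intron of *Cald1*.
Csrp2 peak: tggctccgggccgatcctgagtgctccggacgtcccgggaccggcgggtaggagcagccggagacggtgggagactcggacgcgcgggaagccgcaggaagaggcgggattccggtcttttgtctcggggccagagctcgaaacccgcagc
Csrp1 peak: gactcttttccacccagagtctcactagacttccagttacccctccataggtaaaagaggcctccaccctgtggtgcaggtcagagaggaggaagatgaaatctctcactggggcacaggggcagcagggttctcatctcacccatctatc
Myh10 peak: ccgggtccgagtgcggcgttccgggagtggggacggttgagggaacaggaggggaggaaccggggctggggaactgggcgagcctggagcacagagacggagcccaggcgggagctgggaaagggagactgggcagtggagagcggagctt
Vcl peak: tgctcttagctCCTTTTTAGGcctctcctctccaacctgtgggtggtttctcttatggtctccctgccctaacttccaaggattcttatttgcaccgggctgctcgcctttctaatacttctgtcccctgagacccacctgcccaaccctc
Cald1 peak: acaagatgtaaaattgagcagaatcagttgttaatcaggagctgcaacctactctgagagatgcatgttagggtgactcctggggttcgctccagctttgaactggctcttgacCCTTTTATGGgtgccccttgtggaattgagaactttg
They lie at chr10:110919899-110920049, plus strand (*Csrp2*), chr1:135739857-135740007, plus strand (*Csrp1*), chr11:68692200-68692350, plus strand (*Myh10*), chr14:20930068-20930218, plus strand (*Vcl*), and chr6:34721412-34721562, plus strand (*Cald1*) of GRCm38.p6. A CArG box stood in 2 of the 61 summit windows (3.28%) and in 0.258% of the 11258 summit windows of the whole list on assembled chromosomes, and CATTCC on either strand in 5 (8.20%) and in 5.86%. The summit windows of the 35 genes had a median GC content of 56.3%, and those of the whole list 63.6%.

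Peaks were spread unevenly over the genes. *Cald1* and *Tns1* had 8 each and *Myh9* had 7, of which 4, 7, and 6 lay in introns more than 2 kb from a TSS. *Smtn*, *Actn1*, *Actn4*, *Csrp1*, and *Ldb3* had peaks in the body only. The presence of a peak did not sort the genes by direction in the aorta. The 18 genes with a peak within 2 kb of a TSS had 15 log2 fold changes below 0 and 3 above, with a median of −0.22, the 5 with a peak in the body only had 5 below 0 with a median of −0.34, and the 12 without a peak had 9 below and 3 above with a median of −0.20. These are descriptions, without a test, since genes are not replicates of a condition.

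**Figure D4:**
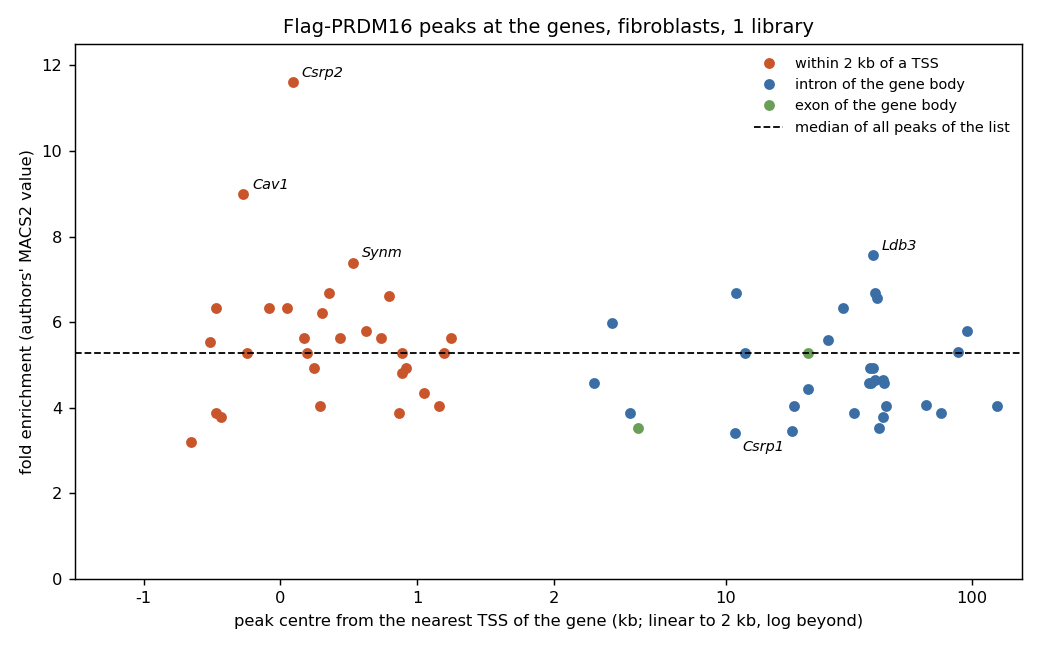
Fold enrichment (the authors' value) of the 61 Flag-PRDM16 peaks at the 35 genes against the distance of the peak centre from the nearest TSS (kb, linear within 2 kb and log beyond), 1 library from fibroblasts. The Csrp2 promoter peak stands highest at 11.6 and the Csrp1 intron peak lies near the bottom at 3.41, with the median of all peaks of the list at 5.27 (dashed line).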

How the data were processed

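RNA-Seq of 3 control and 3 Prdm16SMKO thoracic aortas and anti-Flag ChIP-Seq of fibroblasts with PRDM16 or the vector (1 library each) were used. Per the labels, RNA libraries were poly(A) selected and sequenced as 151 bp paired ends. The authors deposited TPM, 1 column per aorta, transcripts scaled for gene length and library total. Their processing notes name STAR 2.7.8a, RSEM 1.3.3, Bowtie2 2.3.4.1, MACS2, and GRCm38, and the annotation is not given in the sources used here. The TPM hold no counts, so depth per aorta is unknown, and count tests were not used. The deposited peak lists, called by the authors in each library, give the position, the fold enrichment as a ratio, −log10 p, −log10 q, and a score, of which position, fold enrichment, and −log10 q were used. The study's methods name a q of 0.01, but 437 of the 11271 PRDM16 peaks have a −log10 q below 2 (lowest 1.32). Which library served as background is not stated, and the IgG libraries were not used here.

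Samples were grouped by their titles. The study counts the replicates as mice, which the labels do not state, and p values measure the spread between these samples. Equal replicate numbers were not taken to mark pairs of aortas. Correlations of same-numbered deviations over genes were −0.0246, −0.0700, and −0.00896, which gave no sign of pairing but cannot exclude it. Limma 3.58.1 (R 4.3.3; lmFit, eBayes with trend, no covariates) was fitted on log2(TPM + 0.1), keeping genes whose mean TPM reached 0.5, with Benjamini-Hochberg adjustment over all 15668 genes and a threshold of 0.05. Fold changes on this scale understate the change of low genes. The fit was run on simulated data with known changes and independent noise per gene. These data lacked the shifts in scale between the real aortas, so the run cannot speak to those shifts. Shares within paralog families were compared by exact 2-sided permutation tests over aortas. Peaks were assigned by their centre to curated RefSeq transcripts of GRCm38.p6 (within 2 kb of a TSS, or in the body). Promoter sequences came from RefSeq, and all 37 promoter entries of the genes equalled the genome sequence.

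The genes and lists were chosen with earlier results of these data known. Values per aorta were given for every gene of the group. From the other lists, genes called and those with the 3 largest test statistics were named, and *Actc1* and *Ckm* were added after their values were seen. The values of 1 gene of these lists are not reported here. Alternatives were pseudocounts of 1 and 0.01, a minimum mean TPM of 1 or none, median-ratio and quantile scaling, leaving out mitochondrial genes, no trend, a block for the replicate number, each aorta left out in turn, and other peak rules.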

Additional observations from a re-analysis of the deposited data

How the results depend on the processing

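As deposited, limma called 168 genes, 1 of the 35 genes, and 3 genes of the other lists. The count of all genes, of the 35, and of the other lists was 110, 0, and 1 with no filter on low genes, 413, 6, and 13 with median-ratio scaling, 392, 8, and 12 with quantile normalization, 279, 6, and 7 without mitochondrial genes, 370, 8, and 10 without these and CT010467.1 (an alternative chosen after seeing the data), and 48, 0, and 1 without the trend. A minimum mean TPM of 1 gave 2 of the 35 (*Csrp1* and *Myh10*). Leaving out 1 aorta gave 91 to 141 genes, 0 to 2 of the 35, and 1 to 3 of the other lists, the 0 being without control replicate 3, and 91, 99, 93, and 105 genes being without control replicates 1, 2, and 3 and Prdm16SMKO replicate 1. With the replicate number as a block, 184 genes, 2 of the 35 (*Csrp1* and *Myh10*), and 3 of the other lists were called, and the block changed no other call among the 35. Of 560 log2 fold changes of the 35 genes under 16 alternatives, 16 changed sign, in 4 genes whose values were near 0. *Myh9* was at 0.12 with median-ratio scaling, 0.15 with quantile normalization, 0.030 without mitochondrial genes, 0.10 without these and CT010467.1, and −0.13 to 0.10 with 1 aorta left out, above 0 without control replicate 1, Prdm16SMKO replicate 1, or Prdm16SMKO replicate 3. *Ldb3* was at 0.0902, 0.12, 0.0020, and 0.0672 in the same 4 scalings and at −0.10 to 0.0779 with 1 aorta left out, above 0 without control replicate 1 and without Prdm16SMKO replicate 3. *Tpm4* was at 0.011 and 0.0437 with median-ratio scaling and quantile normalization, and *Mylk* at 0.0388 with quantile normalization. The share of *Acta2* among actins differed by −1.71 percentage points against *Actg2* alone and by −3.78 with further actins in the sum. With further paralogs, that of *Pdlim7* differed by −5.24 in place of −11.8, and the shares of *Pdlim5* and *Ldb3* overlapped between the groups (exact permutation p = 0.2 and 0.8, against 0.1). The cause of these changes was not tested. The number of genes with a peak stayed at 23 with windows of 1 or 5 kb, the summit, or GENCODE transcripts, and was 18 within 2 kb of a TSS only, 22 at a q of at most 0.001, and 19 at 1e-05. TPM leave the depth unknown.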
